A study of Mus musculus with 4 samples.

Results

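The genes described here are 10 parts of the inflammasome and of pyroptosis. The sensors are Nlrp3, Nlrp1b, Naip2 and Naip5, and Nlrc4 carries the signal of the NAIP sensors. The others are the kinase Nek7, the adaptor Pycard, the caspases Casp1 and Casp4 and the pore protein Gsdmd. All 10 were chosen by gene symbol from the 38087 genes of the deposited count table, and each symbol had 1 row. In the 4 macrophage libraries all of them were expressed, and none passed 1.5-fold between any pair of libraries, as 1.47% to 7.82% of tested genes did. The widest range belonged to Casp1, whose highest library was 1.43-fold above its lowest.

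Inflammasomes are protein complexes that macrophages build in the cytosol when a sensor detects microbial products or damage. A sensor recruits the adaptor ASC, encoded by Pycard, which gathers caspase-1. Active caspase-1 matures interleukin-1β and interleukin-18 and cuts gasdermin D, whose fragment opens pores in the plasma membrane and leads to the lytic death called pyroptosis. Much of this machinery is present as inactive protein in resting macrophages, so an RNA level does not report whether an inflammasome has formed.

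The cells were bone marrow-derived macrophages of C57BL/6 mice aged 6 to 8 weeks, grown for 5 to 7 days with 30% L929-conditioned medium, a source of macrophage growth factor. Macrophages of 3 groups received extracellular vesicles (EVs) from the human lung epithelial line Beas2B for 16 h. The vesicles came from cells transfected with a mimic of miR-93 (group miR-93 EV), with a mimic of miR-17 (group miR-17 EV) or with scrambled control RNA (group control EV). The library labelled WT, for which no vesicles are named, is called unexposed. Each group was 1 library of RNA pooled from 4 biological replicates, so no spread between cultures was measured and no test between conditions was made. Fewer cells and less RNA per cell cannot be told apart in such pools.

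Libraries held 17815250 to 22607247 reads in genes. Aligned length per read was estimated as deposited average coverage times gene length, divided by reads, for genes averaging 100 reads or more. Its median was 98.7 bases in miR-93 EV, 96.4 in miR-17 EV, 114 in control EV and 103 in unexposed. All 7 macrophage markers on the list were detected in every library, and their normalized counts, led by Lyz2, summed to 619900.0 in miR-93 EV, 607450.0 in miR-17 EV, 736960.0 in control EV and 650740.0 in unexposed. All 7 had intervals below 1 in both mimic libraries over unexposed, at a median log2 ratio of −0.11 in each. Of all tested genes, 18% had such intervals in miR-93 EV and 17.9% in miR-17 EV. Control EV had 3 markers above and 3 below, against 19.6% and 19% of tested genes. Intervals are narrow at such counts, and that of Adgre1 in miR-17 EV excluded 1 at a log2 ratio of −0.02. Lyz2, Csf1r, Fcgr1 and Adgre1 were highest in control EV, and Cd68, Itgam and Mertk were highest in unexposed. Among the 10 genes, Nlrp3, Nlrc4, Pycard and Gsdmd were highest in control EV, and Naip2, Casp1, Casp4 and Nek7 in miR-93 EV. Normalized counts of neutrophil markers summed to 727 in control EV, the lowest value, and to 1149 in miR-17 EV, the highest. S100a8 and Lcn2 carried most of that sum. Of the other 5, S100a9, Ly6g, Mpo and Camp had 0 to 11 reads in a library, with Mpo highest in control EV, and Elane was at 0 in all 3 exposed libraries. Sums were 5.27 to 8.20 for T and NK cell markers, 8.43 to 12.4 for epithelial markers, 14.8 to 26.6 for erythroid markers and at most 29.0 for B cell markers. They were 19.9 to 42.5 for fibroblast markers, 59.7 to 86.0 for mast cell markers and 189 to 274 for dendritic cell markers. Itgae carried most of the dendritic cell sum and was lowest in miR-93 EV. Of the others on that list, Flt3 had 4 to 11 reads in a library and was lowest in unexposed. Zbtb46 had 9 to 23 reads and was highest in miR-93 EV. The part of these cell types in the values that follow was not tested.

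The miRNAs named by the groups belong to 1 family because they share a seed, the stretch that pairs with target mRNAs. Mature mouse sequences are shown for that reason, with the seed (bases 2 to 8) in capitals, from RefSeq (GRCm38.p6, chromosome 5 for miR-93 and chromosome 14 for miR-17). The labels do not give the arm or sequence of the mimics.
mmu-miR-93-5p: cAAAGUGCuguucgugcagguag
mmu-miR-17-5p: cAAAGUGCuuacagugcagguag

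The complement of that seed, GCACTTT, was sought on the sense strand of 3' UTRs, using for each gene the longest one that GENCODE M21 annotates. Of 21193 genes with such a UTR, 2579 (12.2%) held it, and of the 10 inflammasome genes 2 did, Naip5 and Pycard. The matches are printed in the sense direction with 11 flanking bases, and capitals mark the match. No match in the other 8 genes says only that these letters are not in those UTRs.
Naip5: tagtctttgcaGCACTTTtgcgtattcat
Pycard: cactcaaggttGCACTTTtgacctctaca
The Naip5 match is at chromosome 13, 100212077 to 100212083, on the minus strand (mm10). The Pycard match, at chromosome 7, 127990790 to 127990796 on the minus strand, is in an extended UTR beyond the end of the deposited Pycard span, so reads over it were not part of the Pycard count. Relative to unexposed, Naip5 had a ratio of 1.02 in miR-93 EV (95% counting interval 0.919 to 1.14) and of 1.08 in miR-17 EV (0.968 to 1.20). Pycard had 0.908 (0.852 to 0.968) in miR-93 EV and 0.945 (0.887 to 1.01) in miR-17 EV. The part of the matches in these ratios was not tested.

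Levels were compared between genes per length, as RPKM, that is reads divided by length and by the library's total reads in genes. The deposited length is the whole span of a gene with its introns, and exons in GENCODE M21 make up 3.89% of it for Nek7 but 79.6% for Pycard. Exon length was therefore also used, a choice made after seeing the data. Per kilobase of exon, Casp1 had the highest mean over the 4 libraries, 68.8, followed by Pycard at 66.6, and their ranges overlapped. Casp1 had 80.3 in miR-93 EV, 72.6 in miR-17 EV, 54.3 in control EV and 67.9 in unexposed. Pycard was lowest in miR-93 EV, at 62.7, and highest in control EV, at 71.2.

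A middle group followed, in which each neighbour overlapped the next: Naip2 (mean 28.3), Gsdmd (27.0), Nlrc4 (23.9) and Nlrp3, which ranged between 19.1 and 20.8, all in RPKM of exon. Nek7 had 11.8, Casp4 7.97, Naip5 6.22 and Nlrp1b 1.90, and these 4 did not overlap each other in any library. Nlrp1b, whose product is the target of anthrax lethal toxin in susceptible mouse strains, was lowest by either length. Per kilobase of the whole span, Pycard came highest at 53.0, then Gsdmd at 12.6 and Casp1 at 11.8.

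**Figure D1:**
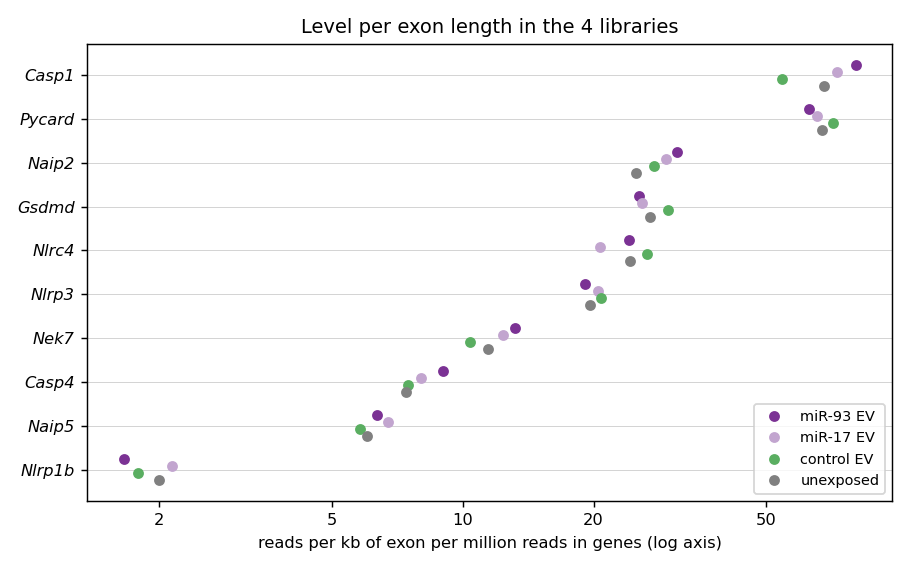
Level of each gene in RPKM of exon (log axis), with 1 point per library and genes ordered by their mean. Casp1 and Pycard lie highest and overlap, Nlrp1b lies lowest at 1.66 to 2.14, and the points of 1 gene lie much closer to each other than the genes do.

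Sensors and their partners Nek7 and Nlrc4 were taken up next, by normalized count, which is the read count divided by a library size factor. Ratios carry 95% exact conditional intervals, which cover counting error only. Nlrp3 senses potassium efflux and many kinds of cell damage (ENSMUSG00000032691, chromosome 11, 59541568 to 59566956). It had 1563 normalized counts in miR-93 EV, 1670.2 in miR-17 EV, 1759 in control EV and 1653.5 in unexposed. The ratios to unexposed were 0.946 (0.883 to 1.01) in miR-93 EV, 1.01 (0.944 to 1.08) in miR-17 EV and 1.06 (0.991 to 1.14) in control EV, and all 3 intervals included 1. MiR-93 EV was lower than control EV, at a ratio of 0.889 (0.829 to 0.953).

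Nek7, a kinase that binds NLRP3 and is needed for its activation (ENSMUSG00000026393, chromosome 1, 138484714 to 138619696), had 1391 normalized counts in miR-93 EV, 1309.9 in miR-17 EV, 1138 in control EV and 1237 in unexposed. Its order over the libraries was the reverse of that of Nlrp3 at both ends, with miR-93 EV highest and control EV lowest. The ratio of miR-93 EV was 1.12 (1.04 to 1.21) to unexposed and 1.22 (1.13 to 1.33) to control EV.

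Nlrp1b (ENSMUSG00000070390, chromosome 11, 71153102 to 71230733) had 211 normalized counts in miR-93 EV, 271 in miR-17 EV, 235 in control EV and 261 in unexposed. It had the fewest reads of the 10 genes, down to 201 in a library, and the widest intervals. MiR-93 EV was lower than unexposed at a ratio of 0.807 (0.672 to 0.969) and lower than miR-17 EV at 0.779 (0.654 to 0.927). In the authors' deposited log2 values the difference of miR-93 EV from miR-17 EV had the opposite sign, 0.24 against −0.36 from the counts.

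Nlrc4 carries the signal of the NAIP sensors (ENSMUSG00000039193, chromosome 17, 74426295 to 74459108). It had 1897 normalized counts in miR-93 EV, 1628 in miR-17 EV, 2172.5 in control EV and 1974 in unexposed. MiR-17 EV was the lowest library and its interval, 1554 to 1704, overlapped none of the others. The ratios of miR-17 EV were 0.825 (0.773 to 0.880) to unexposed and 0.749 (0.702 to 0.799) to control EV. The authors' deposited log2 values gave opposite signs for both, 0.12 to unexposed and 0.17 to control EV, so the direction for Nlrc4 depends on which deposited values are used.

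Naip2 and Naip5 encode receptors that bind bacterial proteins in the cytosol, the rod protein of type III secretion systems for NAIP2 and flagellin for NAIP5, and then engage NLRC4. Naip2 (ENSMUSG00000078945, chromosome 13, 100144063 to 100202092) had 3033 normalized counts in miR-93 EV, 2860.2 in miR-17 EV, 2780.3 in control EV and 2519.7 in unexposed. All 3 exposed libraries were above unexposed, with ratios of 1.20 (1.14 to 1.27) in miR-93 EV, 1.13 (1.08 to 1.20) in miR-17 EV and 1.10 (1.04 to 1.17) in control EV. Of the 10 genes it alone had intervals above 1 in each exposed library. Outside the 10, the related genes Ninj1 and Rraga, described further on, did so too. Such intervals were found for 14.7% of tested genes in miR-93 EV, 13.9% in miR-17 EV and 19.6% in control EV. How many of all tested genes had them in each exposed library was not counted. The ratios of a gene to unexposed all share the unexposed library.

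Naip5 (ENSMUSG00000071203, chromosome 13, 100211739 to 100246323) had 666 normalized counts in miR-93 EV, 700.2 in miR-17 EV, 631 in control EV and 650.2 in unexposed. Its highest library was 1.11-fold above its lowest, the narrowest range of the 10, and its interval included 1 in all 6 comparisons. The Naip genes lie side by side and resemble each other, and reads may be split between them. Of stretches of 75 bases in the longest transcript, 23.8% in Naip5 and 10.9% in Naip2 also occurred in transcripts of other genes, mostly other Naip genes. The same share was 0.660% for Nlrp1b, with Nlrp1a, and 0 for the other 7 genes.

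The adaptor, the caspases and the pore came next. Pycard (ENSMUSG00000030793, chromosome 7, 127992103 to 127993867) had 1774 normalized counts in miR-93 EV, 1846 in miR-17 EV, 2088 in control EV and 1954 in unexposed. Control EV was highest and both mimic libraries were below unexposed. The ratio of miR-93 EV was 0.908 (0.852 to 0.968) to unexposed and 0.850 (0.796 to 0.906) to control EV, and that of miR-17 EV to control EV was 0.884 (0.829 to 0.942).

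Gsdmd (ENSMUSG00000022575, chromosome 15, 75862339 to 75867404) had 1212 normalized counts in miR-93 EV, 1223 in miR-17 EV, 1457 in control EV and 1324 in unexposed. The order of control EV, unexposed and the mimic libraries was that of Pycard. Gsdmd had ratios to control EV of 0.832 (0.770 to 0.899) in miR-93 EV and 0.839 (0.777 to 0.907) in miR-17 EV.

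Casp1 (ENSMUSG00000025888, chromosome 9, 5298517 to 5307265) had 2421 normalized counts in miR-93 EV, 2181 in miR-17 EV, 1696 in control EV and 2109.8 in unexposed. Control EV was the lowest library, and its counting interval of 1609.6 to 1785.5 overlapped none of the others. The ratios to control EV were 1.43 (1.34 to 1.52) in miR-93 EV and 1.29 (1.21 to 1.37) in miR-17 EV. Against unexposed, the ratio was 1.15 (1.08 to 1.22) in miR-93 EV, 1.03 (0.974 to 1.10) in miR-17 EV and 0.804 (0.751 to 0.861) in control EV.

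Casp4, the mouse gene of caspase-11, binds bacterial lipopolysaccharide in the cytosol and can cut gasdermin D without an inflammasome sensor. It adjoins Casp1 (ENSMUSG00000033538, chromosome 9, 5308828 to 5336783) and had 673 normalized counts in miR-93 EV, 595 in miR-17 EV, 577 in control EV and 571 in unexposed. MiR-93 EV was highest, at a ratio of 1.18 (1.05 to 1.32) to unexposed and 1.17 (1.04 to 1.31) to control EV. The other libraries lay within each other's intervals, so the low control EV value of Casp1 was not seen in its neighbour.

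**Figure D2:**
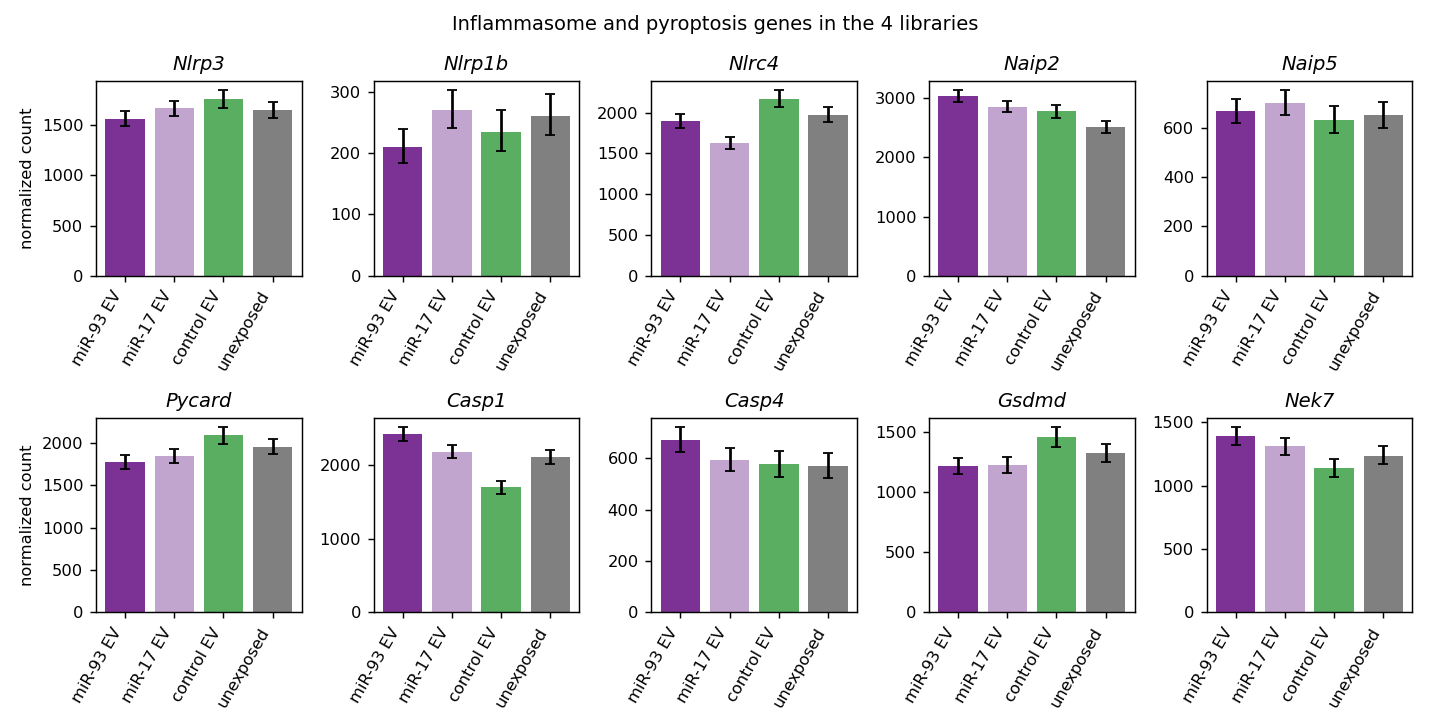
Normalized counts of the 10 genes in each library, with bars from 0 and error bars giving 95% exact Poisson intervals for counting error. Casp1 stands at 1696 in control EV against 2421 in miR-93 EV, Nlrc4 is lowest at 1628 in miR-17 EV, and the other genes differ less.

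In control EV over unexposed, 0 of the 10 genes passed 1.5-fold, as did 5.38% of 15294 tested genes, and 4 had intervals above 1 (19.6% of tested genes) and 1 an interval below 1 (19%). Intervals without 1 on either side were found for 38.6% of tested genes, which reach down to a mean of 20 normalized counts, whereas the 10 genes had means of 245 to 2798. The genes above 1 were Nlrc4, Naip2, Pycard and Gsdmd, and the one below was Casp1. Scaled by total reads or by TMM, 3 were above and 2 below, and with the GC correction described further on 2 and 1. The median log2 ratio of the 10 genes was 0.05, against 0.00 for all tested genes.

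In miR-17 EV over unexposed, 0 of 10 passed 1.5-fold, against 2.86% of 15396 tested genes. Naip2 had an interval above 1 (13.9% of tested genes), and Nlrc4 and Gsdmd had intervals below 1 (17.9%), 3 of 10 against 31.8% of tested genes on either side. This split depended on scaling: 4 were above and 1 below by total reads, 1 and 1 by TMM, and 1 and 1 with the GC correction. The median log2 ratio was 0.05 for the 10 genes and −0.01 for all tested genes. In miR-93 EV over unexposed, 0 of 10 passed 1.5-fold, against 2.81% of 15403 tested genes. Naip2, Casp1, Casp4 and Nek7 had intervals above 1 (14.7% of tested genes) and Nlrp1b, Pycard and Gsdmd below 1 (18%), which made 7 of 10 against 32.7% of tested genes. With the GC correction 1 was above and 1 below. The median log2 ratio was −0.01 in both.

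In miR-17 EV over control EV, 0 of 10 passed 1.5-fold, against 7.82% of 15362 tested genes. Casp1 and Nek7 had intervals above 1 (19.9% of tested genes) and Nlrc4, Pycard and Gsdmd below 1 (24.7%), 5 of 10 against 44.6% of tested genes. By total reads 4 were above and 3 below, by TMM 3 and 3, and with the GC correction 0 and 4. In miR-93 EV over control EV, 0 of 10 passed 1.5-fold, against 7.68% of 15361 tested genes. Intervals were above 1 for Naip2, Casp1, Casp4 and Nek7 (19.5% of tested genes) and below 1 for Nlrp3, Nlrc4, Pycard and Gsdmd (24.9%), 8 of 10 against 44.5% of tested genes. For the 10 genes the median log2 ratio was −0.04 in miR-93 EV and 0.04 in miR-17 EV, and for all tested genes it was −0.02 in both. Both comparisons share the control EV library.

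In miR-93 EV over miR-17 EV, 0 of 10 passed 1.5-fold, against 1.47% of 15465 tested genes. Nlrc4, Naip2, Casp1 and Casp4 had intervals above 1 (8.57% of tested genes) and Nlrp3 and Nlrp1b below 1 (8.53%), 6 of 10 against 17.1% of tested genes. By TMM 4 were above and 1 below, and with the GC correction 3 and 1. The ratios were 1.17 (1.09 to 1.24) for Nlrc4, 1.11 (1.05 to 1.17) for Casp1 and 1.13 (1.02 to 1.26) for Casp4. The median log2 ratio was 0.04, against 0.00 for all tested genes. No gene of the 10 is in the authors' deposited table of 5721 genes past 2-fold in a pair.

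**Figure D3:**
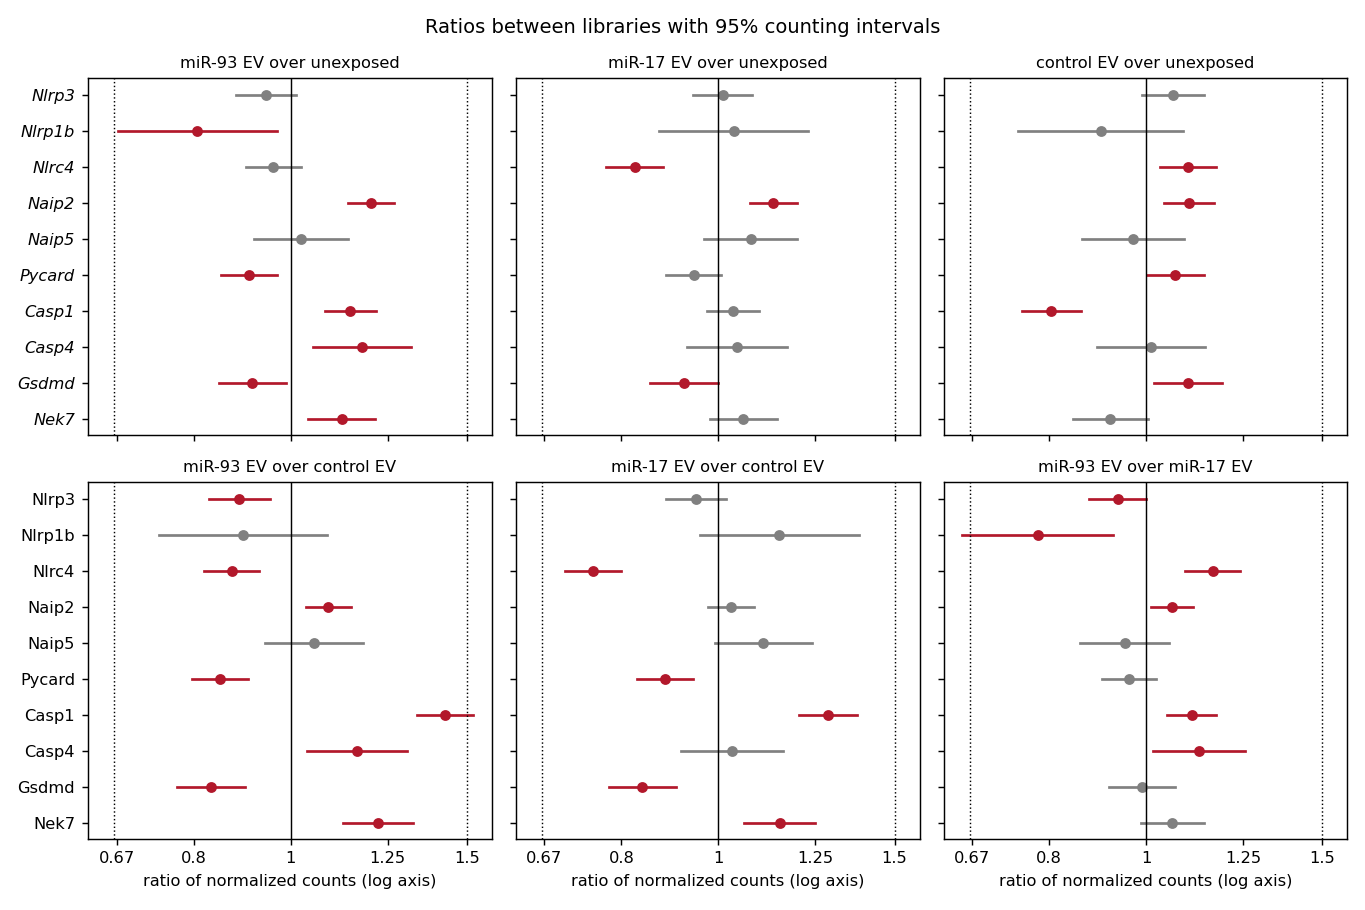
Ratios of normalized counts in 6 pairs of libraries (log axis) with 95% exact conditional intervals. Intervals without 1 are red and dotted lines mark 1.5-fold, and no point lies past those lines, with Casp1 in miR-93 EV over control EV nearest at 1.43.

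Ratios of both mimic libraries to unexposed tended to be lower for genes of higher GC content. Ratios to control EV fell from low to moderate GC content and then rose again. In the lowest of 20 GC bins, at 47.0% GC and in the highest bin, median log2 ratios to control EV were 0.33, −0.12 and 0.01 in miR-93 EV. They were 0.28, −0.11 and 0.01 in miR-17 EV. Across 15361 tested genes, Spearman's rho between GC content and the log2 ratio of miR-93 EV to control EV was −0.25, and for miR-17 EV to control EV it was −0.24 across 15362. Across the 10 genes, which share those libraries, it was −0.96 and −0.79. Against unexposed it was −0.31 over all tested genes and −0.72 over the 10 in miR-93 EV, and −0.30 and −0.60 in miR-17 EV. Control EV over unexposed had a rho of 0.04 over all tested genes and of 0.59 over the 10. There the median log2 ratio of all tested genes first rose with GC content and then fell. It was −0.15 in the lowest of the 20 GC bins, which holds Casp1 and Casp4, 0.08 at 47.0% GC and −0.10 in the highest bin. In miR-93 EV over miR-17 EV rho was −0.05 over all tested genes and −0.44 over the 10. Casp1 and Casp4 have the lowest GC contents, 35.5% and 37.0%, and Gsdmd and Pycard the highest, 54.0% and 49.7%.

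Each log2 ratio was also taken relative to the median of all genes in the same of 20 GC bins. For Casp1 the value in miR-93 EV over control EV became 0.19 in place of 0.51, in miR-17 EV 0.08 in place of 0.36, and in control EV over unexposed −0.17 in place of −0.31. Casp4 in miR-93 EV over control EV changed sign, to −0.11 in place of 0.22. In that comparison 2 genes, Casp1 and Nek7, then had intervals above 1 and 3, Nlrc4, Pycard and Gsdmd, below, in place of 4 and 4. Gsdmd was at −0.20 there in place of −0.27. The ratio of Nlrc4 in miR-17 EV over control EV, −0.42 in log2, lay well below the −0.08 of genes of like GC content. The part of GC content in these differences was not tested further.

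**Figure D4:**
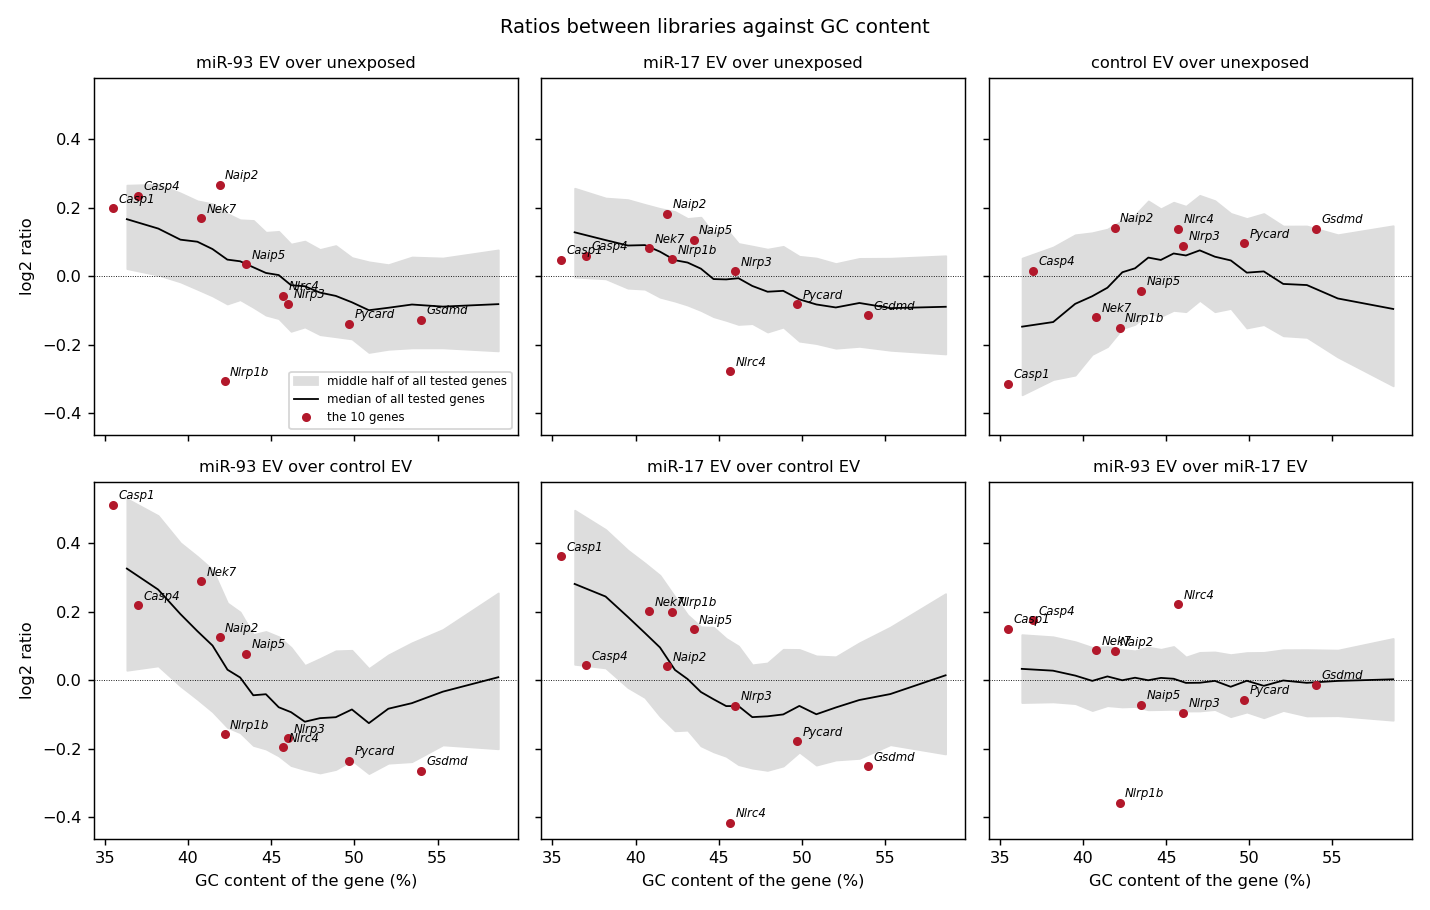
Log2 ratio of each of the 10 genes (red) against its GC content in 6 pairs of libraries, with the median (line) and the interquartile range (grey) of all tested genes in 20 GC bins. In both mimic libraries over control EV the line slopes down from low to moderate GC content and Casp1, at 35.5%, lies at its high end.

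The gene whose pattern was nearest to that of Casp1 over the 4 libraries was the pseudogene Gm9392, followed by AC164597.1 and Tmem30a, with 1700066M21Rik also among the nearest 5. They were found among 11837 genes averaging 100 normalized counts or more, by Euclidean distance of centred log2 values, which was 0.016 to 0.032. Tmem30a, a subunit of phospholipid flippases, had 1447 normalized counts in miR-93 EV, 1330.3 in miR-17 EV, 1034 in control EV and 1260.4 in unexposed. With 4 libraries such likeness is a description only.

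Of 47 further genes of the pathway in 6 lists, 44 passed the minimum of 20 normalized counts in each pair. Relative to unexposed, none passed 1.5-fold in miR-93 EV, miR-17 EV or control EV, where 2.81%, 2.86% and 5.38% of all tested genes did. Their medians were −0.04, −0.05 and −0.03 in log2, against −0.01, −0.01 and 0.00 for all tested genes. Other sensors were Aim2, which binds DNA, and Mefv, which encodes pyrin. The log2 ratios of Aim2 to unexposed were 0.12 in miR-93 EV, 0.02 in miR-17 EV and 0.00 in control EV, those of Mefv were −0.09, −0.10 and 0.11, and all 6 intervals included 1. Naip1, a relative of Naip2 that senses the needle protein of type III secretion systems, had 1415 normalized counts in miR-93 EV, 1205 in miR-17 EV, 1781 in control EV and 1195 in unexposed. Its ratio of 1.49 (1.38 to 1.61) in control EV over unexposed was well above the 1.10 of Naip2 and the 0.971 of Naip5.

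Among genes that act on NLRP3 or NLRP1, Txnip, a thioredoxin inhibitor, Btk, a tyrosine kinase, and Dpp8, a protease that restrains NLRP1, were the most abundant. Of the 9 such genes, set against unexposed, miR-93 EV had 0 with intervals above 1 and 4 below, against 14.7% and 18% of all tested genes. MiR-17 EV had 0 above and 2 below, against 13.9% and 17.9%, and control EV had 4 above and 1 below, against 19.6% and 19%. Txnip had log2 ratios to unexposed of −0.07 in miR-93 EV, −0.10 in miR-17 EV and 0.11 in control EV. Btk had −0.00, 0.06 and 0.19 and Dpp8 0.04, 0.08 and −0.08 in the same libraries.

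Genes of the lipopolysaccharide route had medians of −0.15 in miR-93 EV, −0.15 in miR-17 EV and −0.05 in control EV over unexposed, and 1, 2 and 2 of the 8 were higher by any amount, against 48.9%, 48.1% and 50.1% of all tested genes. Irf8, a transcription factor of macrophages, had log2 ratios of −0.17, −0.14 and −0.02, Irf2, which drives Gsdmd, −0.13, −0.19 and −0.06, and Gbp2, a guanylate-binding protein, −0.03, −0.11 and 0.16. Gbp7 had 97.8 normalized counts in miR-93 EV, 150 in miR-17 EV, 89.0 in control EV and 126 in unexposed. It passed 1.5-fold in miR-17 EV over control EV, at a ratio of 1.68 (1.28 to 2.24), and in miR-93 EV over miR-17 EV, at 0.652 (0.507 to 0.835).

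The cytokines that inflammasomes mature were low. Il1b had 133 normalized counts in miR-93 EV, 132 in miR-17 EV, 148 in control EV and 137 in unexposed, and its interval included 1 in all 6 comparisons. Il18, named here after its values were seen, had 91.4, 87.9, 83.2 and 95.9 in the same libraries, also with 1 in each interval. Il1a, which is released alongside but is not cut by caspase-1, had 126 in miR-93 EV, 102 in miR-17 EV, 76.1 in control EV and 88.5 in unexposed, and passed 1.5-fold in miR-93 EV over control EV at 1.65 (1.22 to 2.25).

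The antagonist gene Il1rn was far more abundant, with log2 ratios to unexposed of 0.02 in miR-93 EV, −0.06 in miR-17 EV and −0.06 in control EV. Il18bp, which encodes the binding protein that neutralizes interleukin-18, had log2 ratios of 0.06, −0.18 and −0.48. In control EV, its lowest library and that of Casp1, the 7 neutrophil markers summed to 727 normalized counts against 1003 in unexposed. That sum rests on S100a8 and Lcn2, since the other 5 were near 0 and Mpo was highest there, and the part of these markers in the values was not tested.

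Ninj1, whose product ruptures the membrane after gasdermin pores form, had log2 ratios to unexposed of 0.23 in miR-93 EV, 0.14 in miR-17 EV and 0.18 in control EV. Of the membrane repair genes, Chmp3 had −0.06, −0.16 and −0.09 in the same libraries and Chmp4b 0.00, 0.01 and −0.05. Of 10 linked cell death genes, Casp8, Ripk1 and Apaf1 were the most abundant, with log2 ratios to unexposed of 0.03 to 0.06 in miR-93 EV, −0.05 to 0.06 in miR-17 EV and −0.04 to 0.13 in control EV.

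**Figure D5:**
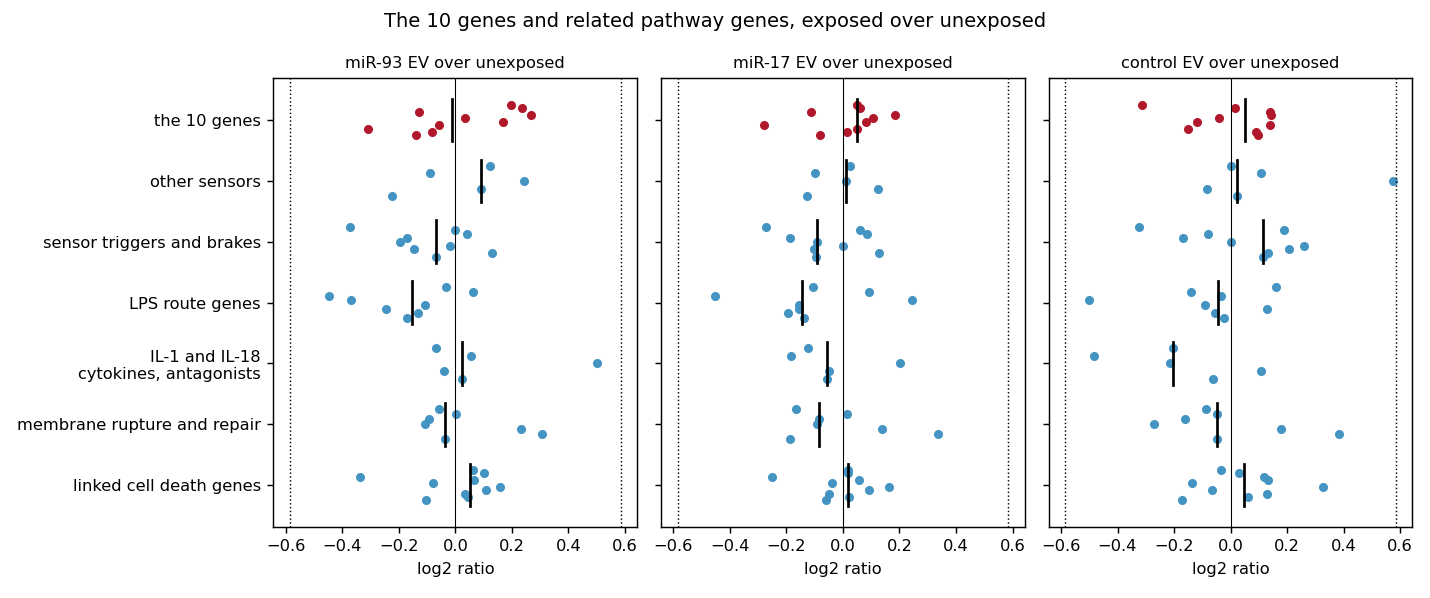
Log2 ratios of the 10 genes (red) and of 6 lists of related pathway genes (blue) in each exposed library over unexposed, for genes averaging 20 normalized counts or more over the 4 libraries. Black bars are list medians and dotted lines mark 1.5-fold; no point lies past those lines, and Naip1 in control EV comes nearest.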

How the data were processed

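Per the file headers, the authors deposited the raw count of reads for every gene and library, in whole numbers. The same table gives average coverage, a signal per base of the gene, and GC content in percent, both as deposited by the authors. In a further deposited table the authors' log2 values have a median of 0 over the libraries in each of 38087 genes. The submitters' processing notes name the mm10 build and DESeq. Not given in the sources used here were the aligner, the annotation, and how strand and reads from the human donor cells were treated. The deposited length equals the whole gene span for all 38087 genes. Of columns with values per library, 4 were not used.

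Counts were divided by median-of-ratios size factors of 1.105 for miR-93 EV, 1.13 for miR-17 EV, 0.854 for control EV and 0.949 for unexposed (Python 3.11.15, pandas 2.3.3, numpy 2.4.6, scipy 1.17.1). Log2 ratios used a pseudocount of 1. A gene was tested with a mean of at least 20 normalized counts in the pair, and passed a fold only if its 95% exact conditional (Clopper-Pearson) interval excluded 1. Because each group was 1 library, the intervals cover counting error only. They make no allowance for PCR copies, which were not told apart by molecular identifiers. The comparison was run on simulated Poisson counts, the error model that the intervals assume. Those counts held no spread between cultures and no GC trend, so the simulation cannot say how the intervals do under either.

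The 10 genes and all lists were chosen with earlier results of these data known. Named genes were the 10, the 3 most abundant of each related list, related genes past 1.5-fold, and the 5 nearest to the widest-ranging member. Some genes that the rule or the lists gave are not reported here. Outside that rule, Il18 and Rraga were chosen after their values were seen. Gsdme and Adgre1 were matched by gene ID. Alternatives were scaling by total reads or by TMM (edgeR 4.0.16), no minimum or 100 normalized counts, pseudocounts of 0.5 and 5, the authors' log2 values, average coverage and a GC correction in 20 bins.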

Additional observations from a re-analysis of the deposited data

Results flagged for a closer look

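For Casp1, Pycard, Gsdmd and Nlrc4, exposed libraries lay on opposite sides of unexposed, each with a counting interval without 1. How many of all tested genes did so was not counted. Intervals without 1 were found for 32.7% of them in miR-93 EV, 31.8% in miR-17 EV and 38.6% in control EV over unexposed. The difference between the exposures was not tested. For Casp1 the log2 ratio to unexposed was 0.20 in miR-93 EV, whereas it was −0.31 in control EV. Pycard had −0.14 in miR-93 EV, whereas control EV had 0.10. Gsdmd had −0.13 in miR-93 EV, −0.11 in miR-17 EV and 0.14 in control EV. Nlrc4 had −0.28 in miR-17 EV and 0.14 in control EV. With the GC correction no gene kept intervals without 1 on both sides. Casp1 then had 0.03 in miR-93 EV, whereas control EV had −0.17. In those libraries Pycard had −0.06 and 0.09, Gsdmd had −0.04 and 0.16, and Nlrc4 had −0.27 in miR-17 EV and 0.07 in control EV. For Nlrc4 the authors' log2 values reversed both sides, with 0.12 in miR-17 EV and −0.06 in control EV. Each of these rests on the single control EV library and shares the unexposed library.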

How the results depend on the processing

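The count of 0 genes past 1.5-fold held in all 6 comparisons under all 9 alternatives. With the authors' log2 values, 15 of 60 ratios changed sign, 7 of them with a counting interval without 1. Among these 7, those of Nlrc4 became 0.12 in miR-17 EV over unexposed and −0.0571 in control EV over unexposed, 0.11 in miR-93 EV over control EV and 0.17 in miR-17 EV over control EV, and −0.065 in miR-93 EV over miR-17 EV. That last comparison gave 0.24 for Nlrp1b and −0.0239 for Casp4. With the same values the median log2 ratio of the 10 genes was 0.11 in miR-93 EV over unexposed and 0.0868 in miR-93 EV over control EV. The cause was not tested. The GC correction changed the sign of 8 ratios, 1 of them with an interval without 1, Casp4 in miR-93 EV over control EV at −0.11. Besides that ratio it put 12 outside their intervals. Some of these 12 are also among the 8, such as Casp1 in miR-17 EV over unexposed. Under the other 7 alternatives all 60 ratios stayed within their counting intervals, though average coverage changed the sign of 3, all of Naip5. No replicate could be left out, and no paired analysis was possible because each group was 1 library. The 10 genes had 201 to 3350 reads per library, which sets the counting intervals; how far cultures vary is unknown here.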

Other observations

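A pathway gene outside the 10 is given because of its values, which were known when it was chosen. Rraga, a small GTPase of the lysosomal mTORC1 pathway that takes part in gasdermin D pore formation, had 1106 normalized counts in miR-93 EV, 1129 in miR-17 EV, 1169 in control EV and 895 in unexposed, with ratios to unexposed of 1.24 (1.13 to 1.35), 1.26 (1.16 to 1.38) and 1.31 (1.19 to 1.43).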
